A study of Homo sapiens with 9 samples.

Results

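The comparison described here sets 3 human embryonic stem cell (hESC) cultures kept for 14 days with FGF3 and FGF10 against the same 3 cell lines before differentiation. Its members are 6 of the 9 arrays of the series, chosen by their group labels and paired by cell line: H14, Shef1 and Shef3 gave 1 array each in the FGF3+10 group and 1 each in the hESC group. The 3 lines are established lines, and each array measured the RNA of a whole culture on an Affymetrix expression array. The series followed differentiation towards progenitors of the inner ear. Another group of 3 arrays, named DFNB, was kept in the same medium without the growth factors. Its values are set beside the others below. Its arrays also enter the choice of probe sets and the shared estimate of spread behind each SE and p-value.

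In the hESC group the cells were undifferentiated and were taken at day 0 from feeder layers of mouse embryonic fibroblasts, in a medium with serum replacement and basic FGF at 4 ng/ml. In the FGF3+10 group the cells had been dissociated, plated on laminin and kept to day 14 in DFNB, a serum-free mixture of DMEM:F12 with N2 and B27 supplements, with FGF3 and FGF10 each at 50 ng/ml. The DFNB group was treated alike but with neither FGF. Time, medium, substrate, feeders and the added FGFs therefore all differ between FGF3+10 and hESC, and their parts cannot be told apart in this comparison. Each line stands once in each group, so the spread within a group includes the differences between lines.

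FGF3 and FGF10 are secreted ligands that bind FGF receptors and act through the RAS and MAP kinase cascade. In the vertebrate embryo they help to induce the otic placode, the thickening of head ectoderm that forms the inner ear. The otic placode arises from a preplacodal region at the border of the neural plate, which also gives the lens placode, and neighbours the neural crest and the forebrain. Pluripotent cells are held in their state by a network of transcription factors together with NODAL and FGF signalling, and they lose it along ectodermal, mesodermal or endodermal routes.

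Levels are given in the units of the deposited values, which are on a log scale taken as log2. The base of the logarithm is not given in the sources used here, so a change of 1 unit is a doubling only under that assumption. Values run in the order Shef3, H14 and Shef1 throughout. Each array has its median over all probe sets at 3.20, and the values have no lower bound. On the 9 arrays 56.6% to 58.0% of probe sets lay below 4. In hESC the median SD over the 3 arrays was 0.91 for genes with a mean level under 0, against 0.34 for genes over 8. Differences that rest on levels under 4 are therefore the less precise ones, and a second value, in which levels under 4 were set to 4 (the floor), is given beside many of them below. Correlation across genes between the FGF3+10 array and the hESC array of its own line was 0.91, 0.947 and 0.953.

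The hESC arrays carried the defining markers of pluripotent cells. NANOG, a core pluripotency factor, stood at 11.10, 10.21 and 10.73, the RNA-binding protein LIN28A at 12.15, 12.06 and 11.44 and the de novo methyltransferase DNMT3B at 12.03, 11.79 and 11.19. L1TD1, SALL4 and PODXL lay between 8.10 and 12.06 on all 3. ZFP42, a marker of undifferentiated cells, went against the label in 1 line, with 10.47, 9.23 and -0.48, and was as low on both day 14 arrays of Shef1. Spiked poly-A control transcripts of bacterial genes averaged 8.31 and 8.24 on the hESC and FGF3+10 arrays of Shef1, against 5.42 to 6.10 on the other 4 arrays. Their part in the differences between lines was not tested.

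A small set of genes passed the threshold for a call. FOXE3, SIX6, the contactins CNTN5 and CNTN6, GFRA1 and WNT5B were among those that rose, and DNMT3L, NLRP7, PDZK1 and S100A14 among those that fell. Genes were called at an adjusted p below 0.05 by limma's moderated test, with Benjamini-Hochberg adjustment over 19775 genes. The main fit held all 9 arrays and no term for the line, so the pairing did not enter it. It called 35 genes (0.177%), of which 19 (0.0961%) were higher and 16 (0.0809%) lower in FGF3+10. All 35 moved the same way in all 3 lines, and for each of them the 3 FGF3+10 arrays lay wholly above or wholly below the 3 hESC arrays. Over all genes such a separation held for 5.68% upwards and 11.3% downwards. The 35 were called on these same arrays, so their separation follows largely from the call and is no separate check of it. The same fit on the 6 arrays alone, without DFNB, called 15, and these held 9 of the 35. A fit of all 9 arrays with the line as replicate block called 115 (0.582%), and these held 34 of the 35. By the unblocked limma fit of all 3 groups, no gene was called without Shef3 or without H14, and 5 were without Shef1. In these fits on fewer arrays 1435, 1286 and 3344 genes had an unadjusted p below 0.05, against 2370 in the main fit. The number of calls is thus not the number of genes that changed. The levels in the plot of the called genes show that most crossed from below level 4 to above it or the reverse.

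**Figure D1:**
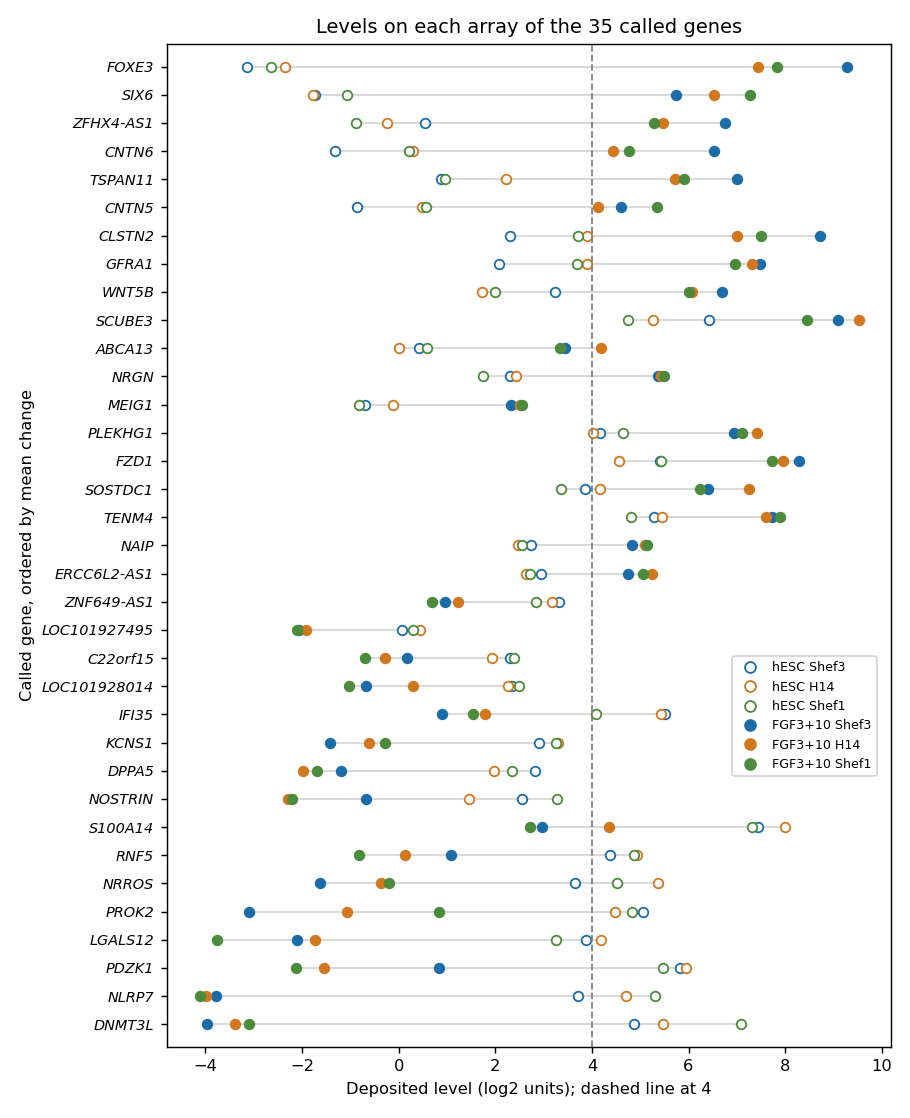
Deposited level (log2 units, horizontal axis) of each of the 35 called genes on the 3 hESC arrays (open circles) and the 3 FGF3+10 arrays (filled circles), coloured by cell line and ordered by mean change. Open and filled circles do not overlap for any gene, which follows largely from the call on these same arrays. Both groups' means lie above the dashed line at 4 for 4 of the genes.

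Transcription factors of the eye and lens led the genes that rose. FOXE3, a forkhead factor required for the lens, had levels of -3.14, -2.36 and -2.65 in hESC and 9.27, 7.43 and 7.83 in FGF3+10. That is a rise of 10.89 ± 1.22 (SE, n = 3 and 3 arrays with the spread taken from all 9, adjusted p = 0.021). SIX6, a homeobox factor of the optic vesicle and pituitary, had -1.73, -1.78 and -1.08 in hESC and 5.74, 6.52 and 7.27 in FGF3+10 and rose by 8.04 ± 1.07 (adjusted p = 0.0357). Both genes were well below level 4 on every hESC array and above 5 on every FGF3+10 array. With levels under 4 set to 4, their changes were 4.18 and 2.51, and neither was called (adjusted p = 0.137 and 0.0956).

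Adhesion and synaptic genes of neural tissue formed another group among the rises. CNTN6 and CNTN5 encode contactins, cell adhesion molecules of the immunoglobulin family that are anchored to the neuronal membrane. CNTN6 went from -1.33, 0.30 and 0.20 to 6.53, 4.43 and 4.77, a rise of 5.52 ± 0.64 (adjusted p = 0.0228). CNTN5 went from -0.87, 0.48 and 0.56 to 4.61, 4.12 and 5.34, a rise of 4.63 ± 0.56 (adjusted p = 0.0267). In both genes the Shef3 hESC array was the lowest of the 6. CLSTN2, a calsyntenin of the postsynaptic membrane, had 2.30, 3.90 and 3.72 in hESC and 8.71, 7.0 and 7.5 in FGF3+10, a rise of 4.43 ± 0.58 (adjusted p = 0.0357, and 0.053 with the line as block). NRGN, or neurogranin, which binds calmodulin in dendrites, went from 2.30, 2.43 and 1.74 to 5.37, 5.42 and 5.49 (a rise of 3.27 ± 0.29, adjusted p = 0.0122), with nearly equal levels on the 3 FGF3+10 arrays. TENM4, a teneurin that acts in cell contact during neural development, was already present in hESC at 5.29, 5.44 and 4.81 and reached 7.73, 7.60 and 7.88 (a rise of 2.56 ± 0.30, adjusted p = 0.0228). CLSTN2, NRGN and TENM4 were also called with levels under 4 set to 4 (adjusted p = 0.0179, 0.0157 and 0.0077), while CNTN5 and CNTN6 were not (0.375 and 0.301).

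Receptors and secreted modulators of signalling rose as well. GFRA1, the co-receptor through which GDNF acts on RET, had levels of 2.07, 3.89 and 3.70 in hESC and 7.48, 7.32 and 6.95 in FGF3+10. The 3 day 14 levels lay closer together than the 3 at day 0. Its change was 4.03 ± 0.53 (adjusted p = 0.0357, and 0.0077 with levels under 4 set to 4). WNT5B, a secreted WNT ligand, went from 3.23, 1.72 and 1.99 to 6.69, 6.08 and 6.02 (a rise of 3.95 ± 0.54, adjusted p = 0.0406). FZD1, a receptor for WNT proteins, went from 5.40, 4.56 and 5.43 to 8.28, 7.96 and 7.73 (a rise of 2.86 ± 0.33, adjusted p = 0.0235). SOSTDC1, a secreted antagonist of BMP and WNT signals, had 3.86, 4.17 and 3.36 in hESC and 6.41, 7.25 and 6.24 in FGF3+10 (a rise of 2.83 ± 0.38, adjusted p = 0.0357). SCUBE3, a secreted and membrane-bound glycoprotein that takes part in BMP and TGF-beta signalling, had the highest levels of the called genes at day 14 in H14 and went from 6.43, 5.26 and 4.75 to 9.09, 9.52 and 8.45 (a rise of 3.54 ± 0.48, adjusted p = 0.0367). All of these but WNT5B (0.0515) were also called with the floor.

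Probe sets did not speak alike for each of these genes. Another WNT5B probe set changed by -0.12 on average, with -0.61, 0.57 and -0.32 in the 3 lines, and its mean levels of 0.42 and 0.30 were low in both groups. The other further WNT5B probe set changed by 1.79, with 3.34, 1.47 and 0.57 in the 3 lines. The 3 further SCUBE3 probe sets changed by 6.63, 1.51 and -0.25 on average. The 2 further probe sets of FZD1 changed by 2.36 and 3.32, and those of GFRA1 by 1.82 and 0.88, upwards in all 3 lines. In total 11 of the 35 called genes had further probe sets, and 3 of these, ERCC6L2-AS1, SCUBE3 and WNT5B, had 1 whose mean change was of opposite sign.

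The remaining rises have mixed roles. TSPAN11, a tetraspanin of the cell membrane, went from 0.88, 2.23 and 0.95 to 6.99, 5.71 and 5.91, and PLEKHG1, a protein with a pleckstrin homology domain, from 4.16, 4.02 and 4.64 to 6.95, 7.41 and 7.11. Their changes were 4.85 ± 0.48 (adjusted p = 0.0157) and 2.88 ± 0.31 (adjusted p = 0.021). ZFHX4-AS1, an antisense RNA at the locus of a zinc finger homeobox gene, went from 0.54, -0.25 and -0.88 to 6.76, 5.46 and 5.29 (a rise of 6.03 ± 0.58, adjusted p = 0.0145). ABCA13, an ATP-binding cassette transporter, rose by 3.32 ± 0.46 (adjusted p = 0.0406), NAIP, a sensor of bacterial proteins, by 2.44 ± 0.27 (adjusted p = 0.021), ERCC6L2-AS1 by 2.24 ± 0.29 (adjusted p = 0.0313) and MEIG1, known from male germ cells, by 3.0 ± 0.42 (adjusted p = 0.0408). MEIG1 and ABCA13 stayed below a mean level of 4 in both groups, and with the floor the change of ABCA13 was 0.06 (adjusted p = 0.92). TSPAN11, PLEKHG1 and NAIP were also called with the floor (adjusted p = 0.0361, 0.0077 and 0.0445), and ZFHX4-AS1 and ERCC6L2-AS1 were not (0.137 and 0.0651). NAIP lies in a duplicated region, so its value may include signal from copies.

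DNMT3L and NLRP7 had the largest falls. DNMT3L, a catalytically inactive partner of the de novo DNA methyltransferases, had levels of 4.87, 5.47 and 7.09 in hESC and -3.97, -3.38 and -3.10 in FGF3+10. It fell by 9.29 ± 0.69 (SE, n = 3 and 3 arrays with the spread taken from all 9, adjusted p = 0.00461), by a similar size in each line. NLRP7, which the oocyte needs to set maternal imprints, went from 3.70, 4.71 and 5.30 to -3.77, -3.99 and -4.12 and fell by 8.53 ± 0.52 (adjusted p = 0.00186). DPPA5, an RNA-binding protein of pluripotent cells, went from 2.82, 1.97 and 2.34 to -1.19, -1.99 and -1.70 and fell by 4.00 ± 0.36 (adjusted p = 0.0122), with changes of -4.01, -3.96 and -4.04 by line. The levels of these genes before differentiation were modest, between 1.97 and 7.09. With levels under 4 set to 4 the changes of DNMT3L and NLRP7 were -1.81 and -0.67 and were not called (adjusted p = 0.146 and 0.333), and DPPA5, below 4 on all arrays, was not tested.

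Epithelial genes were also among the falls. PDZK1, a scaffold protein of apical membranes, went from 5.83, 5.94 and 5.47 to 0.83, -1.55 and -2.12 and fell by 6.70 ± 0.84 (adjusted p = 0.03). S100A14, a calcium-binding protein of epithelia, went from 7.43, 8.0 and 7.32 to 2.98, 4.35 and 2.71 and fell by 4.24 ± 0.51 (adjusted p = 0.0241). These 2 are the only falls that were also called with levels under 4 set to 4 (adjusted p = 0.0077 and 0.00289), beside 10 of the rises.

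Among the other falls, PROK2, a secreted prokineticin, went from 5.05, 4.49 and 4.82 to -3.10, -1.08 and 0.83 (a fall of 5.90 ± 0.83, adjusted p = 0.042). LGALS12, a galectin, went from 3.88, 4.18 and 3.27 to -2.11, -1.72 and -3.76 (a fall of 6.31 ± 0.80, adjusted p = 0.0308), and NRROS, which binds latent TGF-beta in myeloid cells, from 3.65, 5.38 and 4.52 to -1.63, -0.36 and -0.21 (a fall of 5.25 ± 0.62, adjusted p = 0.0239). IFI35, an interferon-induced protein, went from 5.51, 5.42 and 4.08 to 0.90, 1.78 and 1.53 (a fall of 3.60 ± 0.51, adjusted p = 0.0421). RNF5, a ubiquitin ligase with a near-identical pseudogene that its probe set may also detect, went from 4.37, 4.94 and 4.86 to 1.09, 0.14 and -0.82 (a fall of 4.59 ± 0.48, adjusted p = 0.021). With the floor their changes were -0.79, -0.06, -0.63, -1.0 and -0.72, in the same order, and none was called (adjusted p from 0.0922 to 0.87). All of these started at or above level 3 and ended below level 2. KCNS1, a silent potassium channel subunit, NOSTRIN, which binds the endothelial nitric oxide synthase, C22orf15, ZNF649-AS1, LOC101927495 and LOC101928014 fell by 2.15 to 4.16 and had means below level 4 in both groups. Of the 35 called genes 10 had both means below 4 (8 of them falls), and 21 had 1.

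DNA methylation acts on CpG sites and was not measured here. The promoters of the called genes are shown for the 2 largest rises and the 2 largest falls that have an entry. They are 300 bases each from RefSeq on build GRCh38.p14, spanning the annotated start, read along the gene's strand, and capitals mark CpG dinucleotides. The window of SIX6 is chr14:60508896-60509195 on the plus strand, that of CNTN6 chr3:1092774-1093073 on the plus strand, that of NLRP7 chr19:54947481-54947780 on the minus strand and that of PDZK1 chr1:145707351-145707650 on the minus strand.
SIX6: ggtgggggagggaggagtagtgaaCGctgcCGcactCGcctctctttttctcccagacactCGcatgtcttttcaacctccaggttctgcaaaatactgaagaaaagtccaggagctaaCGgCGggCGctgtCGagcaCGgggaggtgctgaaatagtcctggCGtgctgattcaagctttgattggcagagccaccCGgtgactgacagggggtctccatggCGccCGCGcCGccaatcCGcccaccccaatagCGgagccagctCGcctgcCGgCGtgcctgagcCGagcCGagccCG
CNTN6: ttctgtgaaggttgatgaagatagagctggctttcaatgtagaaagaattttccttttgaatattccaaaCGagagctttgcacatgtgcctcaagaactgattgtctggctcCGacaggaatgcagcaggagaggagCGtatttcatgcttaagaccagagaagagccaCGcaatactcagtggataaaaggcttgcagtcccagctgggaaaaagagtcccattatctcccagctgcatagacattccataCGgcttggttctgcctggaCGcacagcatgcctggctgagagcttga
NLRP7: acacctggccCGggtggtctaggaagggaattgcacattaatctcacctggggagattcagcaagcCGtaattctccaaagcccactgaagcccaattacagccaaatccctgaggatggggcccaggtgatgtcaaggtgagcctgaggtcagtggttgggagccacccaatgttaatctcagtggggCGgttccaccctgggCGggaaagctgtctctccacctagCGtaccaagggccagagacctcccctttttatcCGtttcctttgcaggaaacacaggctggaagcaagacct
PDZK1: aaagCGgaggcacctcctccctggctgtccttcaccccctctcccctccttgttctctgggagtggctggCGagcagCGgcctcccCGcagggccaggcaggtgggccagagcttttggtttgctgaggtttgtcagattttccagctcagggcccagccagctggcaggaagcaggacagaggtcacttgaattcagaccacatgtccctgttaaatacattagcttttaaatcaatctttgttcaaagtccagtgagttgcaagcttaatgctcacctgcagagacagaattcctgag

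These windows hold 23 CpG sites in SIX6, 6 in CNTN6, 6 in NLRP7 and 4 in PDZK1. An entry was found for 26 of the 35 called genes. The median number of CpG sites was 24 in the 14 genes that rose and 8.5 in the 12 that fell, against 22 over 15382 measured genes with an entry. More than 10 sites were present in 9 of the 14, in 5 of the 12 and in 72.0% of all. Exceptions ran both ways: PROK2, which fell, had 55 sites, and ABCA13, which rose, had 3. The homeodomain core TAATTA, searched on both strands, was present in the window of 1 gene that rose, GFRA1, and in no window of a gene that fell, against 3.05% of all windows. The octamer ATGCAAAT was present in PLEKHG1 only among the called genes, against 1.51% of all. These counts describe letters in windows and were given no test.

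The DFNB arrays share the hESC arrays as their starting point, so the changes of FGF3+10 and DFNB from hESC are not independent. Directly compared, none of the 35 was called between FGF3+10 and DFNB by limma, where 0.0% of all genes were called and 1.52% had an unadjusted p below 0.05. At an unadjusted p below 0.05 there were 3 of the 35. SIX6 had 4.51, 1.20 and 6.07 in DFNB against 5.74, 6.52 and 7.27 in FGF3+10, a difference of 2.58 with a 95% interval of 0.15 to 5.01 (limma's unadjusted p of 0.0402, adjusted p = 1.0), most of it from H14. C22orf15 and ZNF649-AS1 were lower in FGF3+10 than in DFNB by 1.10 and 1.19 (unadjusted p = 0.00674 and 0.00296, adjusted p = 1.0 for both). FOXE3 had 8.53, 3.32 and 7.89 in DFNB. Its levels in the media were thus close in Shef3 and Shef1 and apart in H14, with a mean difference of 1.60. For the 35 genes the difference between the media ranged from -1.33 to 2.58.

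**Figure D2:**
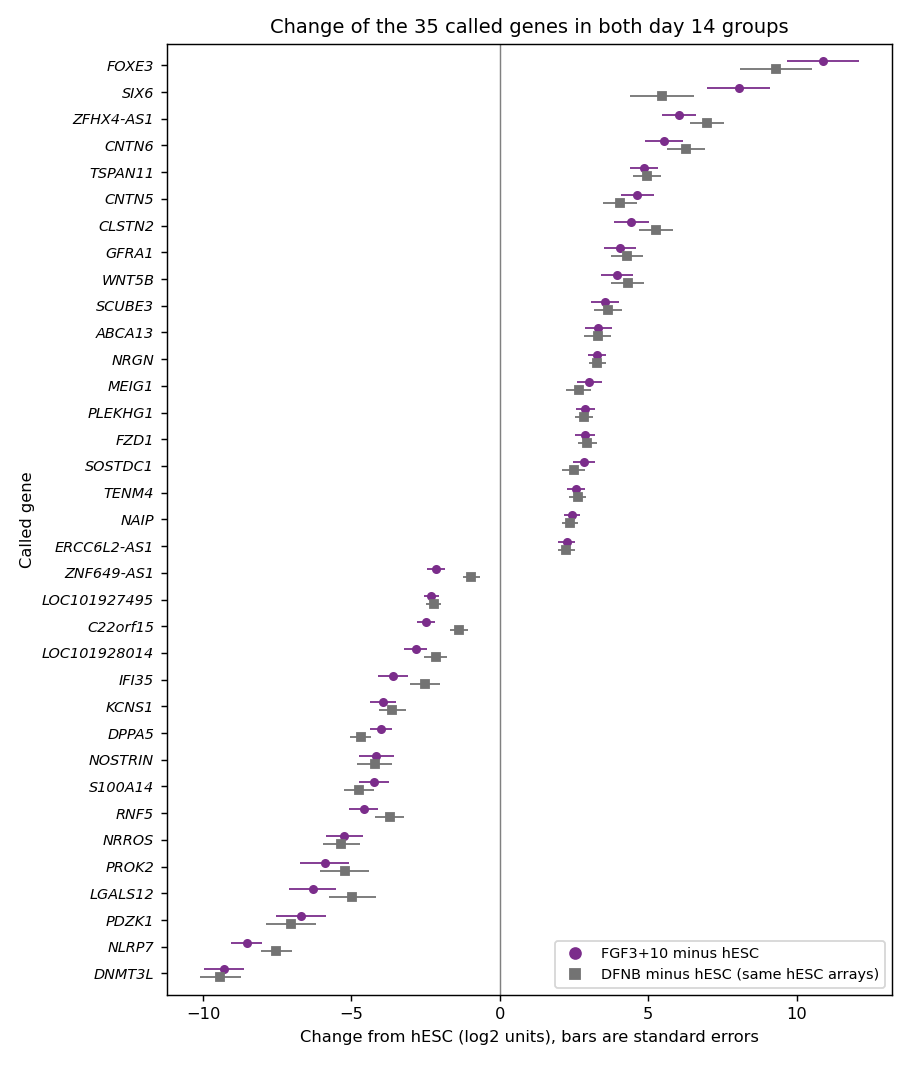
Mean change from hESC of the 35 called genes in FGF3+10 and in DFNB (log2 units), with standard errors. Both changes are measured from the same 3 hESC arrays, and no gene differed between FGF3+10 and DFNB at an adjusted p below 0.05.

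Each gene list below is described by its counts and by its median change, beside the median of -0.19 over all genes. The main fit called 0.0961% of all genes higher and 0.0809% lower, the shares to set beside each count of calls. At these list sizes a list without a call is near those shares and says little about its genes. An array of a whole culture cannot tell fewer cells of a type from less RNA per cell. The median changes of all lists are plotted by line.

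**Figure D3:**
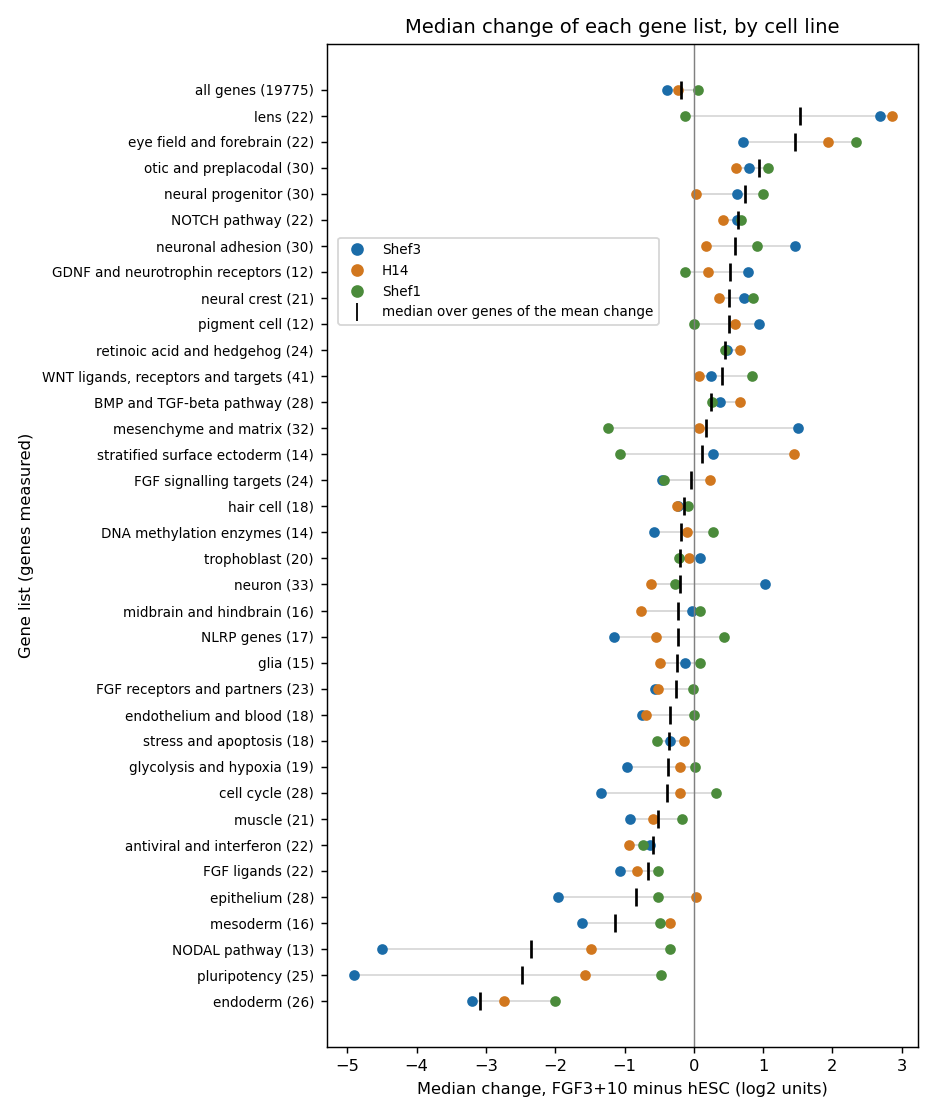
Median change from hESC to FGF3+10 (log2 units) over the measured genes of each list, in Shef3, H14 and Shef1 (points), with the median of the mean change (black bars). Endoderm, pluripotency and NODAL lists stand lowest and lens and eye field lists highest, and the points of the mesenchyme list lie on both sides of 0.

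Pluripotency genes were lower at day 14, to a different extent in each line. Of 25 measured genes 2, DNMT3L and DPPA5, were called lower and none higher, against 0.0809% and 0.0961% of all genes. The median change was -2.48, and 17 of the 25 were lower in all 3 lines, against 24.6% of all genes. By line the median was -4.91, -1.58 and -0.48. NANOG had levels of -7.62, 7.72 and 9.14 in FGF3+10, against 10.2 to 11.1 in hESC, and its change of -7.60 ± 5.58 was not called (adjusted p = 0.627). LIN28A at 6.60, 11.06 and 11.92, DNMT3B at 5.0, 10.31 and 11.30 and L1TD1 at 1.21, 10.11 and 10.86 showed the same order, with Shef3 lowest and Shef1 close to its hESC level. SOX2, which is kept in neural and placodal progenitors, had 8.71, 9.95 and 11.20 against 11.13, 11.04 and 11.11. PODXL, a sialomucin of the cell surface, had 7.47, 10.25 and 11.03. DNMT3L and DPPA5, unlike NANOG and LIN28A, changed by a like amount in all 3 lines. The Shef1 FGF3+10 array had a mean level of 7.23 over the list, against 8.44 in its hESC array, while Shef3 went from 9.28 to 2.88.

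The NODAL pathway, which sustains hESC and induces endoderm, showed a like pattern. None of its 13 measured genes was called. LEFTY1, a secreted inhibitor of NODAL and one of its targets, had 10.52, 9.18 and 11.20 in hESC and -0.11, 2.44 and 6.02 in FGF3+10 (change -7.51 ± 2.21, adjusted p = 0.226, and 0.0896 with the line as block). CER1, a further secreted inhibitor, had 9.66, 6.67 and 9.91 in hESC and 4.27, 1.34 and 1.66 in FGF3+10. Its change of -6.32 was not called (adjusted p = 0.325), but it was with levels under 4 set to 4 (change -4.65, adjusted p = 0.0445). By limma on the 6 arrays alone its adjusted p was 0.123. The SD of CER1 was 1.80 in hESC and 1.61 in FGF3+10, but 5.26 over the DFNB arrays, which enter the main fit. FOXH1, a transcription factor that works with SMAD proteins, had -1.63, 6.76 and 7.54 against 9.11, 8.88 and 7.87. The median of the list was -2.35, with -4.49, -1.48 and -0.35 by line.

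Endoderm genes were lower in FGF3+10 than in hESC in nearly all measured members. Of 26 genes none was called in the main test, 4 (GATA4, APOA1, APOB and FGA) were called lower with the line as block, where 0.278% of all genes were, and 4 (SOX17, FOXA2, CER1 and CLDN18) with levels under 4 set to 4, where 0.515% were. In total 23 of the 26 were lower in all 3 lines, and 16 had an unadjusted p below 0.05 on the lower side, against 7.47% of all genes. The median change was -3.08, or -3.20, -2.75 and -2.0 by line, and -2.17 with the floor. APOA1, a protein of plasma lipoproteins, had 10.60, 10.40 and 8.50 in hESC and 6.82, 6.72 and 5.19 in FGF3+10 (change -3.59 ± 0.67, adjusted p = 0.0909, and 0.0259 with the block). APOB, of the same function, had 8.91, 7.21 and 5.83 in hESC and 2.97, 2.95 and 2.86 in FGF3+10. FOXA2, a pioneer factor of endoderm and floor plate, had 6.26, 6.67 and 5.99 in hESC and 1.20, 1.94 and 1.56 in FGF3+10 (change -4.74 ± 1.41, adjusted p = 0.228, and 0.0077 with the floor). Its SD was 0.34 in hESC and 0.37 in FGF3+10, but 3.47 over the DFNB arrays, which enter the SE. SOX17, which specifies definitive endoderm, had 7.44, 6.99 and 5.56 in hESC and 0.85, 3.71 and 3.35 in FGF3+10. The fetal plasma protein AFP was present in both groups, with 10.20, 9.39 and 7.48 in hESC and 8.04, 6.45 and 5.81 in FGF3+10. The hESC arrays thus held transcripts of endoderm and liver genes at day 0, at a mean level over the list of 7.08, 6.08 and 4.96, against 3.29, 3.18 and 2.43 in FGF3+10.

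The median change of the lens genes was 1.54, or 2.69, 2.85 and -0.13 in Shef3, H14 and Shef1. Of 22 measured genes FOXE3 was called in the main test, and PROX1 was added with the line as block, where 0.303% of all genes were called higher. At an unadjusted p below 0.05 there were 11 on the higher side, against 4.52% of all genes. PROX1, a homeobox factor of lens fibres and of other tissues, had 1.51, 0.52 and 1.75 in hESC and 7.69, 5.50 and 5.71 in FGF3+10 (change 5.04 ± 0.80, adjusted p = 0.0619, and 0.0277 with the block). CRYAA, the alpha-A crystallin, had -1.41, -0.46 and 4.61 in hESC and 5.87, 7.93 and 3.62 in FGF3+10, so that its Shef1 level did not exceed that of hESC (change 4.89 ± 1.64, adjusted p = 0.281). CRYBB3 and CRYGS, crystallins chosen after their values were seen, changed by 8.33, 7.79 and 1.21 and by 3.76, 5.52 and -0.92 by line, least in Shef1 in both. CRYAB, a crystallin and small heat shock protein, and CRYGC, likewise chosen afterwards, were higher in all 3 lines, by 10.68, 6.60 and 2.89 and 6.31, 3.16 and 3.70. The list's median was 0.02 with the floor, and 11 of the 22 had no group mean above 4.

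The eye field and forebrain list also leaned higher. SIX6 was called, and LHX9 and EMX2, homeobox factors of the developing forebrain, were added with the line as block. LHX9 had 1.61, 0.87 and 2.61 in hESC and 4.66, 4.32 and 5.34 in FGF3+10 (adjusted p = 0.0864, and 0.0259 with the block). EMX2 had 2.52, 3.24 and 2.73 in hESC and 5.21, 6.94 and 4.72 in FGF3+10 (adjusted p = 0.13 and 0.0438). PAX6, a master factor of the eye and forebrain, had 3.61, 5.79 and 5.03 in hESC and 9.32, 8.24 and 10.42 in FGF3+10, with no overlap between groups, and its change of 4.51 ± 1.01 was not called (adjusted p = 0.13). SIX3 and LHX2, chosen after their values were seen, had the next largest mean changes after SIX6, with -1.41, 1.35 and 1.97 against 7.2, 7.0 and 9.52 and 0.88, 3.43 and 2.48 against 8.30, 8.44 and 10.39 (adjusted p = 0.101 and 0.0964). Of the 22 measured genes 11 were higher and none lower in all 3 lines, against 13.3% and 24.6% of all genes. The median change was 1.47, or 0.70, 1.94 and 2.34 by line, with Shef1 highest, and 0.12 with the floor.

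Otic and preplacodal genes, the stated direction of the cultures, had no called member among 30, where 0.177% of all genes were called. With the line as block DLX5 and TBX2 were called. DLX5, a homeobox factor of the preplacodal region and otic vesicle, had 0.73, 1.45 and 1.07 in hESC and 3.64, 6.34 and 4.07 in FGF3+10 (change 3.61 ± 0.70, adjusted p = 0.0965, and 0.0445 with the block). TBX2, a T-box factor of the otic vesicle and optic cup, had 3.11, 3.13 and 3.58 in hESC and 7.08, 6.31 and 6.83 in FGF3+10 (change 3.47 ± 0.55, adjusted p = 0.0619 and 0.0499). In the list 17 genes were higher and 4 lower in all 3 lines, against 13.3% and 24.6% of all genes. At an unadjusted p below 0.05 there were 11 on the higher side, against 4.52% of all genes. EYA1, a transcriptional co-activator of the preplacodal region, had 1.99, 2.50 and 2.38 in hESC and 5.85, 6.91 and 3.53 in FGF3+10 and was lowest at day 14 in Shef1. Its groups did not overlap, and its change was 3.14 ± 0.83 (adjusted p = 0.188).

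Neither of the otic factors of the PAX family was called. PAX8, an early otic placode gene, had 5.71, 5.86 and 6.46 in hESC and 6.03, 5.73 and 6.22 in FGF3+10, a change of -0.02 ± 0.40 (adjusted p = 0.994). PAX2, which follows it in the otic vesicle, had 1.82, 3.31 and 0.01 in hESC and 2.13, 4.50 and 4.40 in FGF3+10, and the groups overlapped (change 1.96 ± 0.95, adjusted p = 0.455). GATA3, a zinc finger factor of the otic vesicle, had 8.72, 7.87 and 6.29 in hESC and 9.30, 9.25 and 8.53 in FGF3+10 (change 1.40 ± 0.62, adjusted p = 0.419). The DFNB arrays had 3.26, 4.66 and 4.39 for DLX5, 6.57, 6.29 and 4.73 for EYA1 and 9.78, 9.19 and 8.51 for GATA3, close to or overlapping the FGF3+10 levels. Hair cell genes, of the mature sensory epithelium, had low mean levels over 18 genes, of 1.92, 1.91 and 1.56 in hESC and 1.66, 1.83 and 1.58 in FGF3+10. Of the 18, 3 had a group mean above 4. Among these, MYO6 had means of 8.56 in hESC and 8.27 in FGF3+10, and CIB2 7.34 and 6.61. The median of the otic and preplacodal list was 0.95, or 0.79, 0.61 and 1.07 by line.

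**Figure D4:**
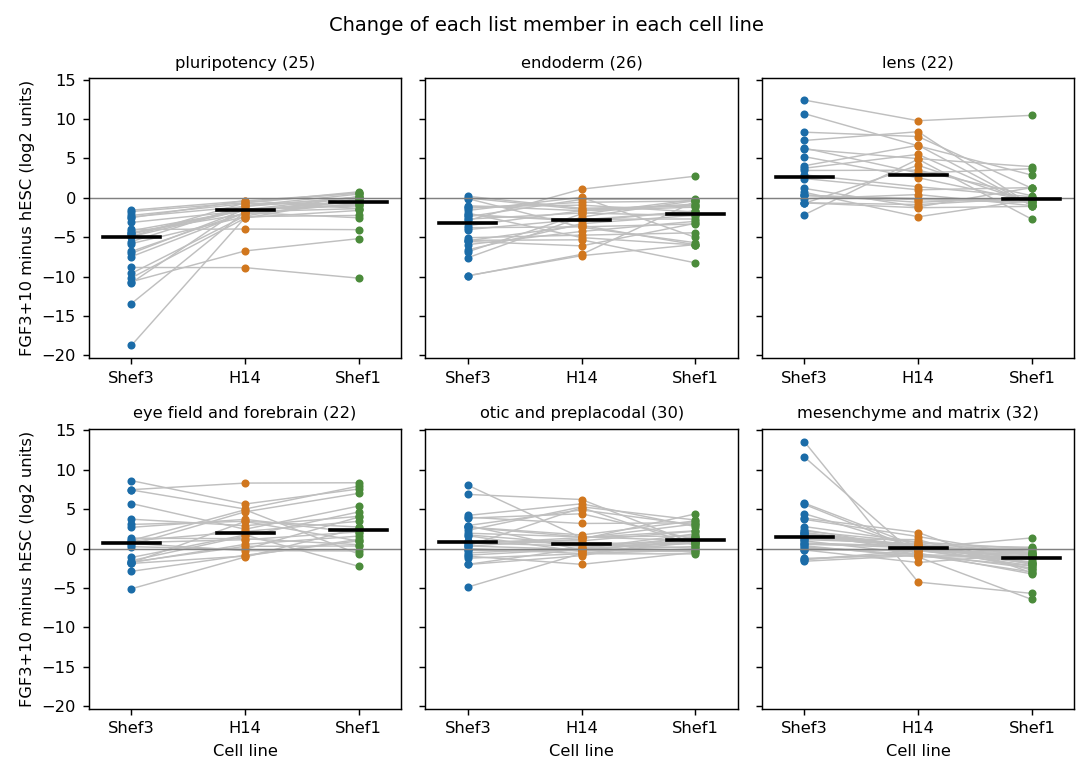
Change from hESC to FGF3+10 (log2 units, vertical axis) in each cell line for the measured members of 6 gene lists. Grey lines join the points of 1 gene and black bars are medians. Pluripotency members reach furthest down in Shef3, and otic and preplacodal members lie on both sides of 0 in each line.

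In the neural progenitor list of 30 genes none was called. Of them 13 were higher and 1 lower in all 3 lines, against 13.3% and 24.6% of all genes. MEIS2, a homeobox cofactor, was called with the line as block, with 7.69, 8.21 and 7.65 in hESC and 10.26, 10.68 and 9.64 in FGF3+10 (adjusted p = 0.0721, 0.0323 with the block and 0.0364 with the floor). At an unadjusted p below 0.05 there were 11 on the higher side and none on the lower, against 4.52% and 7.47% of all genes. SOX1, an early neural plate factor, had 3.26, 5.28 and 3.34 in hESC and 6.22, 3.09 and 5.47 in FGF3+10, and NES, the intermediate filament nestin, 11.44, 9.65 and 8.77 in hESC and 10.04, 9.62 and 8.81 in FGF3+10. FABP7, of radial glia, had 7.05, 8.17 and 7.88 in hESC and 6.59, 7.22 and 8.70 in FGF3+10. These defining members had overlapping groups and adjusted p values of 0.702, 0.819 and 0.945. The list's median was 0.73, or 0.62, 0.04 and 0.99 by line.

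Neuronal adhesion genes gave 3 of the calls, CNTN5, CNTN6 and CLSTN2, among 30 measured, where 0.0961% of all genes were called higher. Of the 30, 15 were higher in all 3 lines, against 13.3% of all genes. CNTN4, a further contactin, had 2.48, 5.24 and 3.42 in hESC and 7.65, 7.15 and 7.11 in FGF3+10, and was called with the floor only (adjusted p = 0.0923, and 0.0442 with the floor). The related genes CNTN1 and CNTNAP2, chosen after their values were seen, changed by -0.54 and -0.92. The neuron list had no called member. STMN2, a neuronal microtubule regulator, had 5.98, 7.95 and 7.29 in hESC and 8.49, 6.64 and 4.12 in FGF3+10, and DCX, of migrating neurons, 0.78, 6.20 and 4.90 in hESC and 7.91, 6.86 and 5.58 in FGF3+10, with adjusted p values of 0.869 and 0.43. MAP2, of dendrites, had 5.60, 6.90 and 6.39 in hESC and 9.29, 8.17 and 9.03 in FGF3+10 (adjusted p = 0.0791, and 0.0442 with the floor). The neuron list of 33 genes had a median of -0.21, or 1.03, -0.61 and -0.28 by line, against 0.60 for the adhesion list.

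Neural crest and mesenchyme genes mark other cells such cultures can hold. TFAP2A, a factor of crest and surface ectoderm, had 6.06, 7.43 and 5.79 in hESC and 8.71, 10.10 and 8.51 in FGF3+10, a change of 2.68 ± 0.58 of like size in each line (adjusted p = 0.116, and 0.0323 with the line as block). MSX2, of crest and BMP response, had 7.78, 6.97 and 5.39 in hESC and 10.08, 9.07 and 8.04 in FGF3+10 (adjusted p = 0.275 and 0.0297). SOX10, which defines migrating crest, stayed low at 2.57, 4.18 and 3.21 in hESC and 1.88, 3.81 and 1.78 in FGF3+10. The further crest marker TFAP2B had 2.15, 5.77 and 3.93 in hESC and 6.09, 8.44 and 6.15 in FGF3+10, without overlap (adjusted p = 0.29). FOXD3 had 7.55, 6.64 and 6.52 in hESC and 0.09, 4.74 and 6.69 in FGF3+10 (adjusted p = 0.563). Of 21 crest genes 7 were higher and 5 lower in all 3 lines, against 13.3% and 24.6% of all genes, with a median of 0.51. In the mesenchyme and matrix list none of 32 genes was called, and the median change by line was 1.5, 0.08 and -1.23. COL1A1, the main fibrillar collagen, was high in both groups, with 12.06, 11.61 and 12.13 in hESC and 11.87, 11.44 and 11.54 in FGF3+10. DCN, a matrix proteoglycan of fibroblasts, had 6.06, 7.01 and 6.86 in hESC and 9.76, 8.52 and 5.98 in FGF3+10. COL3A1 changed by 0.70, 0.27 and -1.95 by line and LUM by 0.97, -0.70 and -2.48. COL6A1 changed by -1.62, -0.87 and -2.22, COL6A2 by -1.37, -0.58 and -3.22 and COL6A3 by -1.26, -0.81 and -2.98. Of the 32 genes 3 were higher and 7 lower in all 3 lines, against 13.3% and 24.6% of all genes. The mean level over the list was 7.05, 7.29 and 7.75 in hESC and 9.17, 7.19 and 6.12 in FGF3+10, highest in Shef3 at day 14 and lowest in Shef1. Its part in the differences between lines was not tested.

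Genes of the FGF pathway itself were not called. Of 24 measured targets of FGF signalling none was called in the main test, with the block or with the floor. These fits called 0.177%, 0.582% and 0.917% of all genes tested, so no call among 24 is near those shares. Of the targets 2 had an unadjusted p below 0.05, both on the lower side, where 7.47% of all genes did. SPRY1 and SPRY2, feedback inhibitors of receptor tyrosine kinases, had 8.27, 8.38 and 6.89 and 8.65, 9.16 and 7.56 in FGF3+10 against 7.95, 7.55 and 7.46 and 9.08, 7.94 and 7.89 in hESC. SPRY4, of the same family, had 6.38, 6.69 and 4.54 against 8.61, 6.96 and 5.89. DUSP6, a phosphatase induced by the MAP kinase it inactivates, had 8.81, 9.18 and 8.26 against 9.0, 7.61 and 8.34. ETV4 and ETV5, ETS factors induced by FGFs, had changes of -1.30 ± 1.34 and 0.31 ± 0.57. Adjusted p values of these genes ran from 0.57 (SPRY4) to 0.934 (SPRY2), and each had overlapping groups. DUSP5 and FOSL1, also on the list, were lower in all 3 lines and had no overlap between groups. Their changes were -1.59 ± 0.53 and -1.88 ± 1.44 (adjusted p = 0.278 and 0.642), with that of FOSL1 only -0.08 in H14. Of the 24 targets 8 were lower and 1 higher in all 3 lines, against 24.6% and 13.3% of all genes. In H14 the change of SPRY1, SPRY2, DUSP6, ETV4 and ETV5 was positive and in Shef1 negative (-0.19, 1.57 and -0.08 for DUSP6 by line). The hESC medium also held basic FGF, and the list's median was -0.04.

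FGF receptors and ligands were likewise without a call, where 0.177% of all genes were called. FGFR1, FGFR2 and FGFR3 stood between 7.5 and 9.8 in both groups, with changes of -0.83 ± 0.42, -0.33 ± 0.43 and -0.76 ± 0.53. FGFR2 is the receptor whose epithelial splice form binds FGF3 and FGF10, and the gene-level value does not separate the forms. ESRP1, a splicing regulator of epithelial cells that favours this form, had 9.71, 9.38 and 9.61 in hESC and 6.12, 8.87 and 8.57 in FGF3+10, without overlap between groups (change -1.71 ± 0.70, adjusted p = 0.381). The cells' own FGF3 was low, with -2.97, -0.51 and -3.80 in hESC and -2.82, -1.32 and -2.39 in FGF3+10, and so was FGF10, with 3.43, 3.59 and 1.52 in hESC and 2.41, 2.67 and -1.04 in FGF3+10. FGF9, a ligand of eye and inner ear, had 3.0, 1.5 and 3.23 in hESC and 5.85, 5.96 and 5.37 in FGF3+10 (change 3.15 ± 0.64, adjusted p = 0.106). FGF2 and FGF4, expressed by pluripotent cells, had 5.37, 5.78 and 8.10 and 2.66, 4.85 and 5.33 against 8.23, 7.72 and 8.31 and 5.95, 6.15 and 5.70. Of 22 ligands 10 were lower and 2 higher in all 3 lines, against 24.6% and 13.3% of all genes, and the median was -0.65.

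Among the WNT genes, WNT5B and FZD1 were the called members of 41, and WNT2B was added with the line as block, with 4.63, 3.53 and 3.37 in hESC and 7.86, 5.67 and 6.42 in FGF3+10 (adjusted p = 0.197, and 0.0373 with the block). Of the list 14 genes were higher and 5 lower in all 3 lines, against 13.3% and 24.6% of all genes, and its median was 0.40. The BMP and TGF-beta list of 28 genes had SCUBE3 as its only call, and 10 genes on the higher side and 1 on the lower at an unadjusted p below 0.05, against 4.52% and 7.47% of all genes. GFRA1 was the only call among 12 GDNF and neurotrophin receptor genes. Its co-receptor RET, chosen after its values were seen, had 5.63, 4.97 and 4.40 in hESC and 3.19, 3.88 and 4.94 in FGF3+10 and changed by -2.44, -1.10 and 0.54 by line.

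Epithelial, antiviral and NLRP genes made up further lists. In the epithelium list PDZK1 and S100A14 were called lower among 28, where 0.0809% of all genes were. Of the 28, 14 were lower and 3 higher in all 3 lines, against 24.6% and 13.3% of all genes. The median was -0.84, or -1.96, 0.03 and -0.52 by line, so the list as a whole did not fall in H14. EPCAM and OCLN, chosen after their values were seen, changed by -2.23, -0.74 and -0.75 and -3.84, -0.91 and -0.41 by line, most in Shef3. PSMB8 and PSMB9, the interferon-inducible subunits of the immunoproteasome, were called lower with the line as block but not without it. PSMB8 had 5.59, 6.02 and 6.78 in hESC and -2.09, 1.16 and 3.40 in FGF3+10 (adjusted p = 0.178, 0.0499 with the block and 0.0255 with the floor), and PSMB9 3.16, 3.41 and 4.99 in hESC and -2.49, -1.85 and 0.16 in FGF3+10 (adjusted p = 0.136 and 0.0373). In the antiviral list of 22 genes 11 were lower and none higher in all 3 lines, against 24.6% and 13.3% of all genes, with a median of -0.59 against -0.19 over all genes. NLRP12, an inhibitory member of the NLRP family, had 4.00, 4.34 and 3.64 in hESC and -0.31, 1.07 and 1.45 in FGF3+10 (adjusted p = 0.0604 and 0.0499), and of 17 NLRP genes 2 had a group mean above 4.

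Further genes were called only under a different fit. With the line as block, the largest such rises were HSD17B2, a steroid dehydrogenase that went from -1.88, -3.15 and 1.83 to 8.97, 6.43 and 8.93, KCNIP4, a potassium channel interacting protein (0.64, -0.09 and 2.96 to 7.22, 5.63 and 6.81), SCUBE1 (0.55, -0.11 and -2.19 to 6.43, 3.68 and 3.76) and ERICH5 (3.21, 1.42 and 4.82 to 9.11, 6.93 and 8.83). Their adjusted p values were 0.0373, 0.0499, 0.0259 and 0.0277 with the block and 0.105, 0.109, 0.109 and 0.136 without it. MMP1, a collagenase, went the other way, from 5.52, 7.27 and 10.36 to -0.90, 2.97 and 3.72 (adjusted p = 0.0297 with the block and 0.176 without). By line HSD17B2 changed by 10.85, 9.58 and 7.10, KCNIP4 by 6.58, 5.72 and 3.84 and SCUBE1 by 5.89, 3.79 and 5.96. ERICH5 changed by 5.90, 5.51 and 4.02 and MMP1 by -6.42, -4.30 and -6.64. Why these genes were called only with the block was not tested. With levels under 4 set to 4, where 123 of 13406 genes (0.917%) passed, including 12 of the 35, the largest further calls were CER1, FOXD3-AS1, GNA14, MACC1-OT1, ACTA1 and RAB17 on the lower side and LGI1, ADAMTS18, CNTN4 and NCALD on the higher side. ADAMTS18, a secreted metalloprotease of eye development, had 4.59, 4.08 and 4.14 in hESC and 9.17, 8.89 and 7.36 in FGF3+10 (adjusted p = 0.0341 with the floor and 0.0516 without). LGI1, a secreted neuronal protein, had 4.39, 4.71 and 1.84 in hESC and 7.55, 9.15 and 6.96 in FGF3+10 (adjusted p = 0.0341 and 0.0923). ACTA1, skeletal alpha-actin, had 8.87, 8.63 and 8.82 in hESC and 5.34, 4.65 and 3.61 in FGF3+10 (adjusted p = 0.0377 and 0.0619).

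Large changes were most numerous in Shef3. There 1160 genes were more than 2 units higher and 1675 more than 2 units lower in FGF3+10 than in hESC, against 705 and 1105 in H14 and 751 and 867 in Shef1. The SD of the changes over genes was 1.57, 1.19 and 1.15. With 1 array per line and group these counts have no replicate check.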

How the data were processed

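The deposited table holds 1 log2 value per probe set for each of 9 arrays, and the authors had set each array's median to 3.20. The software, the background correction and the base of the logarithm are not stated in the labels or the file, so base 2 is an assumption. Of 54675 probe sets 41097 named exactly 1 gene in the platform annotation, 1801 several and 11715 none, and 62 were controls. Entrez identifiers gave current symbols for 41043. Each of 19775 genes was represented by its probe set of highest mean level on the 9 arrays, and 10523 genes had more than 1.

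The group comparison used limma 3.58.1 under R 4.3.3 (lmFit and eBayes, a mean for each of 3 groups, 1 shared spread, no block), with Benjamini-Hochberg adjustment over all genes and calls at an adjusted p below 0.05. Cell lines pair the arrays by label: deviations from group means correlated at 0.181, 0.258 and 0.283 within lines and at 0.056 at most across lines. Alternatives were the line as replicate block, 6 arrays alone, quantile normalisation, a filter on mean level, a floor of 4, the mean of probe sets, array weights, and each line or array left out. Labels do not say that cultures were repeated within a line, so p-values measure the spread between these arrays. Arrays have no read depth, and their number limits the precision. In simulated data with 50 changed genes per size, 22, 39, 45 and 48 were recovered at changes of 2, 4, 6 and 8, with 8 false calls.

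The comparison, the 35 gene lists and the tests were chosen with earlier results of these data known, so lists were given no set test. Named genes are all called genes, up to 6 members per list called with or without the block, or else the 3 largest changes of 1 sign with a mean above 4, a fixed set of pluripotency, otic and FGF genes, list markers, and the 10 largest further calls with the block and with the floor. Other genes are said to be chosen afterwards. Some list members are not reported here.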

Additional observations from a re-analysis of the deposited data

Results flagged for a closer look

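In 2 gene lists and 2 marker genes the cell lines moved in opposite directions from hESC to FGF3+10 by a set size. That size was 1 unit each way for list medians and 2 units each way for marker genes. Others moved both ways but fell short of it in at least 1 direction. Among them were CRYAA (7.28, 8.39 and -0.99 in Shef3, H14 and Shef1) and the neuron list (1.03, -0.61 and -0.28). With 1 array per line and group the difference between lines was not tested. The median change of the mesenchyme and matrix list was 1.497 in Shef3 and -1.23 in Shef1. That of the stratified surface ectoderm list was 1.44 in H14 and -1.06 in Shef1. SOX1, a neural plate factor, changed by 2.97 in Shef3 and by -2.20 in H14. STMN2, a neuronal microtubule regulator, changed by 2.51 in Shef3 and by -3.18 in Shef1.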

How the results depend on the processing

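The number of genes called, 35 as reported, was 115 with the cell line as replicate block (60 higher and 55 lower), 15 from the 6 arrays alone, 10 from those with the replicate block, 66 among genes with a mean level above 4 (50 higher and 16 lower), 123 with a floor of 4 (54 higher and 69 lower) and 284 with array weights (123 higher and 161 lower). It was 38 after quantile normalisation and 31 with the mean of probe sets (12 higher and 19 lower). Leaving out 1 line or 1 array gave 0 to 10 calls: 0 without Shef3, 0 without H14 and 5 without Shef1, and 8, 6 and 2 without the hESC array or 8, 2 and 10 without the FGF3+10 array of Shef3, H14 and Shef1. No gene was called between FGF3+10 and DFNB with or without the replicate block, where 537 and 300 had an unadjusted p below 0.05. Over the settings that kept every array, the called genes lost the call in 82 of 252 instances. They kept their direction in all 252, but the block and the 6-array fits leave the change itself as it was. With a line or an array left out they lost the call in 282 of 315 instances. Their direction held in all 315, which was fixed in advance, because the groups do not overlap for any called gene. Of the named genes that were not called, 16 changed sign in 40 instances, some of them at changes near 0. With every array kept these were 0.0019 for CIB2, 0.16 for COL3A1, 0.16 for FABP7 and 0.045 for PAX8 with the mean of probe sets, 0.019 for PAX8 after quantile normalisation, and -0.21 for FGF3 and -0.59 for SOX1 with array weights. Leaving out a line or an array gave -0.95 to 0.68 for COL3A1, -0.14 to 0.77 for DUSP6, -0.10 to 0.98 for ETV5, -0.80 to 0.26 for FABP7, -0.44 to 1.20 for FGF3, -0.77 to 0.014 for FGFR2, -1.59 to 0.31 for LUM, -1.05 to 0.28 for NES, -0.19 to 0.21 for PAX8, -2.75 to 0.080 for SALL4, -0.033 to 2.55 for SOX1, -0.13 to 0.67 for SPRY1, -0.38 to 0.60 for SPRY2, -2.24 to 0.60 for STMN2 and -5.51 to 0.57 for ZFP42. Quantile normalisation brought the median change of all genes from -0.19 to -0.06.

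List medians moved by more than their spread over lines with the floor of 4: otic 0.42, eye field 0.12, FGF ligands 0.0, WNT 0.0, retinoic acid and hedgehog 0.28, endoderm -2.17, mesoderm -0.13, muscle -0.11, trophoblast 0.0, pigment cell 0.0, hair cell 0.0 and antiviral -0.13. After quantile normalisation they were 0.017 for trophoblast, -0.025 for hair cell and -0.10 for stress, and with the mean of probe sets 0.19 for neural crest and -2.27 for endoderm. Leaving out a line gave 0.25 to 1.26 for neural progenitor, 0.0048 to 0.69 for GDNF, -0.99 to -0.59 for FGF ligands, 0.20 to 0.57 for BMP, 0.47 to 0.60 for NOTCH, -3.32 to -2.39 for endoderm, -0.23 to 0.11 for trophoblast, -0.44 to 0.13 for glia and -0.30 to -0.022 for hair cell. The causes were not tested.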

Other observations

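The lists that follow held no gene called without the block. Of the NOTCH pathway 10 of 22 genes were higher in all 3 lines, against 13.3% of all genes, with a median of 0.63. HES5, a NOTCH target of neural progenitors, had 3.94, 3.48 and 2.92 in hESC and 5.63, 4.53 and 5.65 in FGF3+10, and HEY1, of the same family, 6.68, 6.29 and 6.37 in hESC and 8.58, 9.16 and 7.54 in FGF3+10. HEY2 went the other way, with 7.21, 7.19 and 7.63 in hESC and 5.07, 5.64 and 5.75 in FGF3+10 (adjusted p = 0.0923, and 0.0442 with levels under 4 set to 4). In the retinoic acid and hedgehog list RBP4, the plasma carrier of retinol, was called lower with the cell line as block (adjusted p = 0.0482), with 6.28, 5.94 and 4.23 in hESC and 1.78, 2.81 and -0.50 in FGF3+10. ALDH1A1 and ALDH1A2, enzymes of retinoic acid synthesis chosen after their values were seen, changed by 3.72, 2.90 and 4.08 and 2.51, 4.23 and 7.05 in Shef3, H14 and Shef1.

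The cell cycle list had a median of -0.39 over 28 genes, or -1.35, -0.20 and 0.33 by line, with CCNB1 at 10.58, 10.64 and 10.44 in hESC and 9.15, 10.28 and 10.42 in FGF3+10. In the stress list CHAC1 and ASNS, genes of the amino acid response, had 8.52, 7.19 and 6.55 in hESC and 5.04, 5.24 and 5.60 in FGF3+10, and 11.60, 10.93 and 11.07 in hESC and 9.42, 9.51 and 10.32 in FGF3+10, without overlap between groups (adjusted p = 0.138 and 0.147). VEGFA, a target of hypoxia, had 8.70, 8.21 and 8.31 in hESC and 7.06, 7.07 and 7.70 in FGF3+10 (adjusted p = 0.203).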
